A study of Mus musculus with 20 samples.

Results

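Mice have families of GTPases that cells make in large amounts when interferons reach them, and 8 of their genes are described here in jejunal epithelium with and without the histone demethylase genes Kdm6a and Kdm6b. The 8 were taken by gene symbol from the deposited tables and are the guanylate-binding protein genes Gbp2, Gbp3, Gbp6 and Gbp7 and the immunity-related GTPase genes Iigp1, Igtp, Irgm1 and Irgm2. All 8 were found among the 17294 gene rows of the 7-day table and the 16195 rows of the 5-month table, and all 8 passed the filter on low values at both times. Poly(A) RNA was sequenced from female mice. The double-knockout (DKO) group had Kdm6a and Kdm6b ablated and the control group is labelled control or wild type. There were 7 DKO and 5 control libraries from 7 days after ablation (acute), and 5 DKO and 3 control libraries from 5 months after it (prolonged). The recombinase that drives the ablation, its inducing agent, the strain and the age of the mice are not given in the sources used here. The labels call the libraries biological replicates, and each acute label carries an animal number.

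Both GTPase families defend cells against microbes that live inside vacuoles or in the cytosol. Guanylate-binding proteins (Gbp) assemble on bacteria and on the vacuoles of parasites and open the way for inflammasome sensing. Of the immunity-related GTPases (Irg), effectors such as Iigp1 (also called Irga6) coat and break pathogen vacuoles, whereas Irgm1, Irgm2 and Igtp (also called Irgm3) are regulators that sit on the cell's own membranes and keep the effectors off them. Interferon-gamma is the best known inducer of both families, through the kinases Jak1 and Jak2 and the transcription factor Irf1; type I and type III interferons also act through Stat2 and Irf9. Kdm6a and Kdm6b encode demethylases that remove the repressive mark H3K27me3 from histone H3.

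The start-site regions are shown for those of the 8 genes in the RefSeq promoter table (build GRCm38.p6). They cover 250 bases before to 50 bases after each gene's start. Sequences of 6 of the 8 genes matched by symbol, all but Gbp6 and Iigp1. Each line gives 100 bases in the direction of transcription, and capitals mark every match to the core of an interferon-stimulated response element, searched on both strands as GAAA, any 2 bases, GAAA; where 2 matches overlap the capitals run through both.
Gbp2: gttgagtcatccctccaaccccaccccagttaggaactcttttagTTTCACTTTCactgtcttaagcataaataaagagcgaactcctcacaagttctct
Gbp3: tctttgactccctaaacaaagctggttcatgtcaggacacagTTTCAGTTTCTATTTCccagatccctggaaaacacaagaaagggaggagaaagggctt
Gbp7: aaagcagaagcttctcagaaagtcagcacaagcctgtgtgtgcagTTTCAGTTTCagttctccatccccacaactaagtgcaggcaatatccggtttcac
Igtp: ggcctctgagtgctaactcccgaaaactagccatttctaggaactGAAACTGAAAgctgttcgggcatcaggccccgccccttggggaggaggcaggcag
Irgm1: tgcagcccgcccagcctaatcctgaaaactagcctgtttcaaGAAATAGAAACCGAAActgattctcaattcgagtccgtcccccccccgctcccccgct
Irgm2: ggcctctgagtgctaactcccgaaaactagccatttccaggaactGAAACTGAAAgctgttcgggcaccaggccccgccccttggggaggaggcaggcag

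The stretches lie at chr3:142620559-142620658 on the plus strand for Gbp2, chr3:142559957-142560056 on the plus strand for Gbp3, chr3:142530238-142530337 on the plus strand for Gbp7, chr11:58199477-58199576 on the plus strand for Igtp, chr11:48871393-48871492 on the minus strand for Irgm1 and chr11:58214868-58214967 on the plus strand for Irgm2, all in GRCm38.p6. All 6 genes had the response-element core in a region, against 3.99% of the 27025 genes of the table (3.44% of its 32851 promoters). Gbp3 has 2 promoters in the table, and the second held neither this core nor the second motif given next. Its first base lay 59 bases before the start of Gbp2, 53 before Gbp7, 34 before Igtp and 64 before Irgm2; Gbp3 held matches at 45 and 39 bases and Irgm1 at 30 and 24 bases before the start. A second motif, the gamma-activated site, searched as TTC, any 3 bases, GAA, which reads the same on both strands, was found in the regions of Gbp7, Igtp and Irgm2, 3 of 6 genes, against 9.55% of all genes and 8.30% of all promoters in the table. The Igtp and Irgm2 regions were alike at 68.1% of 270 aligned bases, whereas the other 14 pairs of the 6 regions shared 27.7 to 34.9%. No match of one motif overlapped a match of the other. A match is a match of letters, not a shown binding site. The genes were picked as interferon-induced, so their shares of both motifs are descriptions and not tests. Whether the motifs relate to how the genes vary across libraries was not tested. By gene order in RefSeq, Gbp2, Gbp3 and Gbp7 stand in 1 cluster on chromosome 3, and Igtp and Irgm2 are next to each other on chromosome 11 together with Gm12250; Irgm1 lies elsewhere on chromosome 11, and Gbp6 on chromosome 5 beside Gbp4 and Gbp10.

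Values below are read counts scaled to 1000000 reads in genes per library (CPM), as deposited. The libraries held between 19134272 and 26586045 reads in genes in the acute DKO group, 15435118 and 26549494 in acute controls, 12560843 and 20612206 in the prolonged DKO group and 9914738 and 23181576 in prolonged controls. The targeted genes were lower in 7 of 7 acute and 5 of 5 prolonged DKO libraries than in every control of the same time (Kdm6a at 42.6 ± 2.73 CPM in acute DKO and 66.1 ± 6.62 CPM in acute control libraries, SD, n = 7 and 5), although reads outside a deleted part are counted too. Epithelial marker genes such as Vil1 and Cdh1 summed to 10170 to 11110 CPM in DKO and 9702 to 10180 CPM in control libraries over 8 markers and were abundant in every library. The series names crypt cells, and genes of villus enterocytes were abundant as well, at 22270 to 34240 CPM in DKO and 17780 to 30000 CPM in control libraries over 8 markers.

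At 5 months the GTPase genes were higher in DKO epithelium. By limma on log2(CPM + 1), with Benjamini-Hochberg adjustment over all 13316 genes tested, 6 of 8 rose at an adjusted p under 0.05 and 0 of 8 fell (0 at an unadjusted p under 0.05, and 0 by edgeR and DESeq2). Those that rose were Gbp2, Gbp3, Gbp7, Iigp1, Igtp and Irgm1, and Gbp6 and Irgm2 did not pass. Of all genes tested at that time, 5.74% were called higher and 8.94% lower. The median log2 fold change was 1.31 over the 8 genes and 0.0015 over all genes; a positive value means higher in DKO, and the added 1 CPM understates the change of low genes. In bulk samples more cells of a type and more RNA per cell cannot be told apart.

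**Figure D1:**
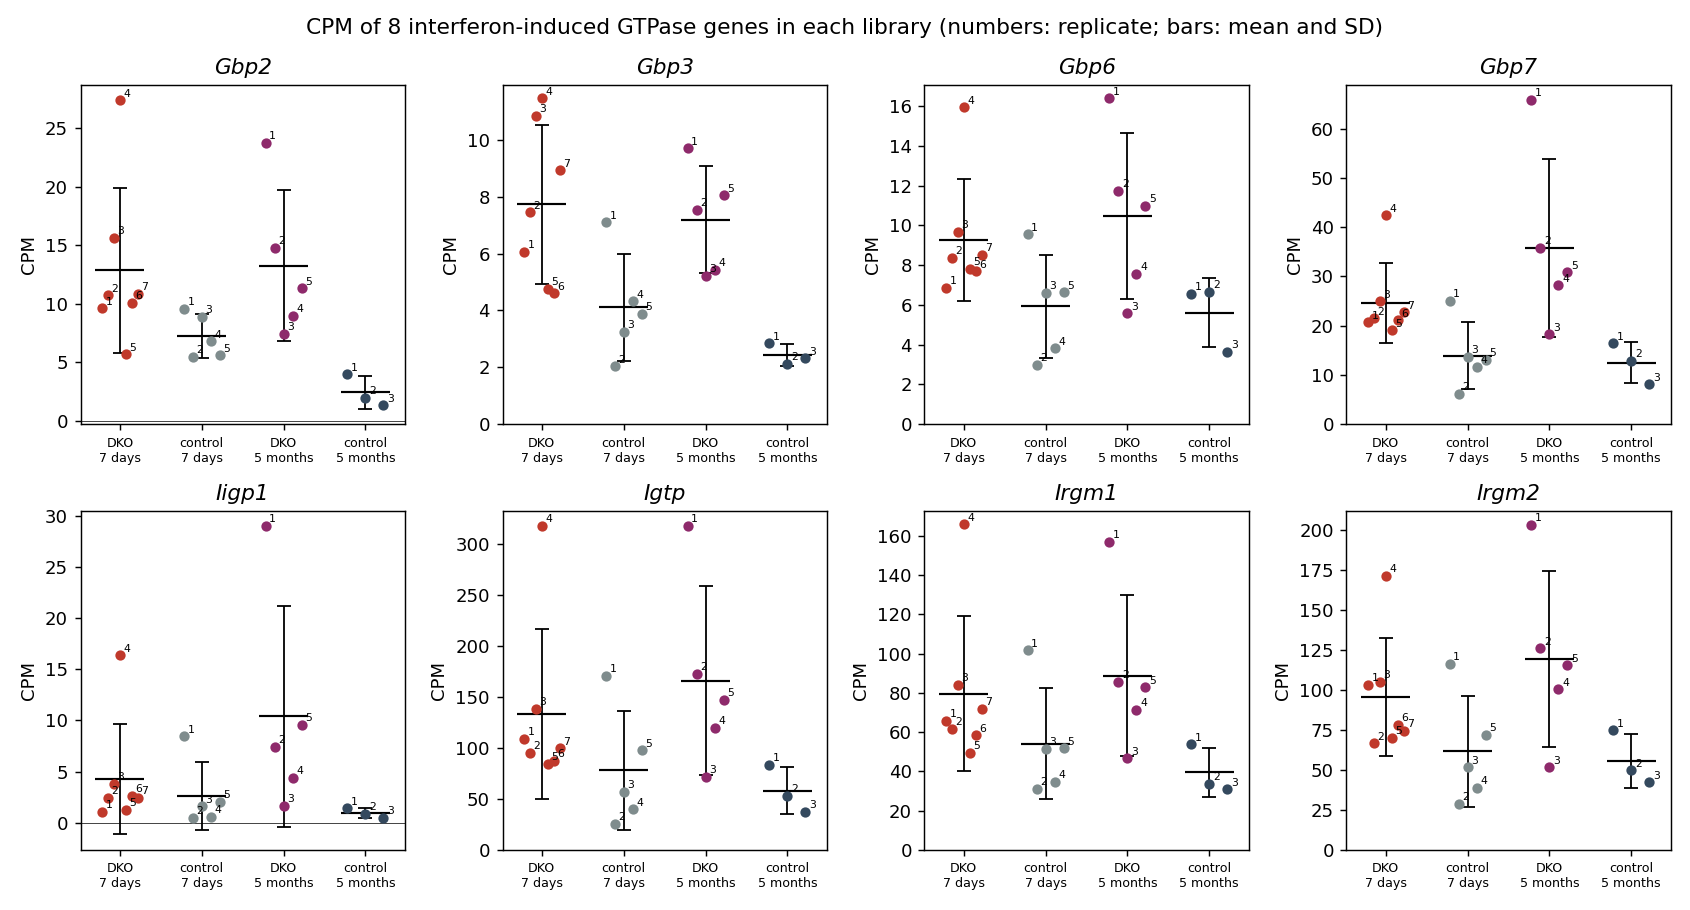
CPM of each of the 8 GTPase genes (vertical axes, linear) in every library, with DKO left of control at 7 days and at 5 months; points are libraries with their replicate number, and bars show the mean and SD. Acute DKO 4 and prolonged DKO 1 are the highest points of their groups for all 8 genes, and acute control 1 is the highest acute control for all 8.

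Among the regulators, Igtp was the most abundant of the 8 genes. It stood at 317.7, 172.7, 71.7, 119.9 and 147.2 CPM in prolonged DKO libraries 1 to 5, against 83.6, 53.2 and 37.4 CPM in prolonged controls 1 to 3. Only DKO 3 lay within the control range. Igtp rose by 1.41 ± 0.37 on the log2 scale (SE; adjusted p by limma = 0.0259), with means of 165.8 ± 92.8 CPM in DKO and 58.1 ± 23.5 CPM in control libraries (SD, n = 5 and 3).

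Irgm1, the regulator whose loss in mice is best known for leaving them open to bacterial infection, had 157.0, 85.7, 46.7, 71.4 and 82.9 CPM in the 5 prolonged DKO libraries and 53.9, 33.7 and 30.9 CPM in the 3 prolonged controls. Here too DKO 3 was the one DKO library below the highest control. The log2 fold change was 1.08 ± 0.30 (adjusted p by limma = 0.0298). Irgm2, the neighbour of Igtp on the chromosome, had 203.1, 126.0, 51.6, 100.3 and 115.2 CPM in prolonged DKO and 74.7, 49.6 and 42.3 CPM in prolonged control libraries. Its log2 difference of 1.001 ± 0.33 missed the threshold (adjusted p by limma = 0.0619).

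The effector Iigp1 had the highest ratio between genotypes of the 8 genes at 5 months and, among DKO libraries, the widest spread relative to its mean. Its CPM were 29.0, 7.42, 1.65, 4.42 and 9.56 in prolonged DKO libraries and 1.42, 0.860 and 0.504 in prolonged controls. Every DKO library lay above every control, from 24 to 364 reads in DKO and 5 to 33 reads in control libraries, and the DKO mean was 11.2 times the control mean. The SD among DKO libraries, 10.8 CPM around a mean of 10.4 CPM, was as large as the mean itself. The log2 fold change was 2.12 ± 0.57 (adjusted p by limma = 0.0260).

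Gbp2, which in mice takes part in attack on vacuoles of Toxoplasma and in release of bacterial products to caspase-11, had 23.7, 14.8, 7.43, 8.98 and 11.3 CPM in prolonged DKO libraries, against 3.97, 1.95 and 1.31 CPM in prolonged controls. The groups did not overlap. Gbp2 rose by 2.03 ± 0.32 (adjusted p by limma = 0.00167), with a DKO mean 5.5 times that of controls. Gbp3 had 9.71, 7.54, 5.23, 5.43 and 8.06 CPM in prolonged DKO and 2.85, 2.12 and 2.32 CPM in prolonged control libraries. It too separated the genotypes fully, and with SDs of 1.88 and 0.375 CPM it had the smallest spread relative to its mean of the 8 genes in both groups; it rose by 1.23 ± 0.18 (adjusted p by limma = 0.000911).

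Gbp7 had 65.9, 35.8, 18.2, 28.2 and 30.9 CPM in prolonged DKO libraries and 16.4, 12.9 and 8.07 CPM in prolonged controls. DKO 3 lay just above control 1, and no libraries overlapped. The log2 fold change was 1.38 ± 0.32 (adjusted p by limma = 0.0133). Gbp6, one of several closely similar genes whose reads may be divided in an unknown way, had 16.4, 11.8, 5.57, 7.57 and 11 CPM in prolonged DKO and 6.56, 6.65 and 3.63 CPM in prolonged control libraries. Its difference was 0.75 ± 0.28 and was not called (adjusted p by limma = 0.0947).

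In all, 4 of 8 genes (Gbp2, Gbp3, Gbp7 and Iigp1) had every prolonged DKO library above every control, against 8.82% of all genes. Exact two-sided permutation tests of single genes, not adjusted, gave 0.0179 for Gbp2, Gbp3 and Gbp7, the smallest p that 56 splits allow. They gave 0.0536 for Iigp1, Igtp and Irgm1, which therefore miss 0.05 by that test. For Gbp6 and Irgm2 the permutation p was 0.107 and 0.0893. Gbp2 and Gbp3 were called whichever library was left out. Without control 3, the shallowest library, 2 genes were called higher, and without control 2 or without DKO 5 it was 3; Igtp, Iigp1 and Irgm1 lost their calls in each of these cases and Gbp7 without control 3 (adjusted p = 0.0764). Without DKO 3 all 8 were called, and without control 1 it was 7.

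**Figure D2:**
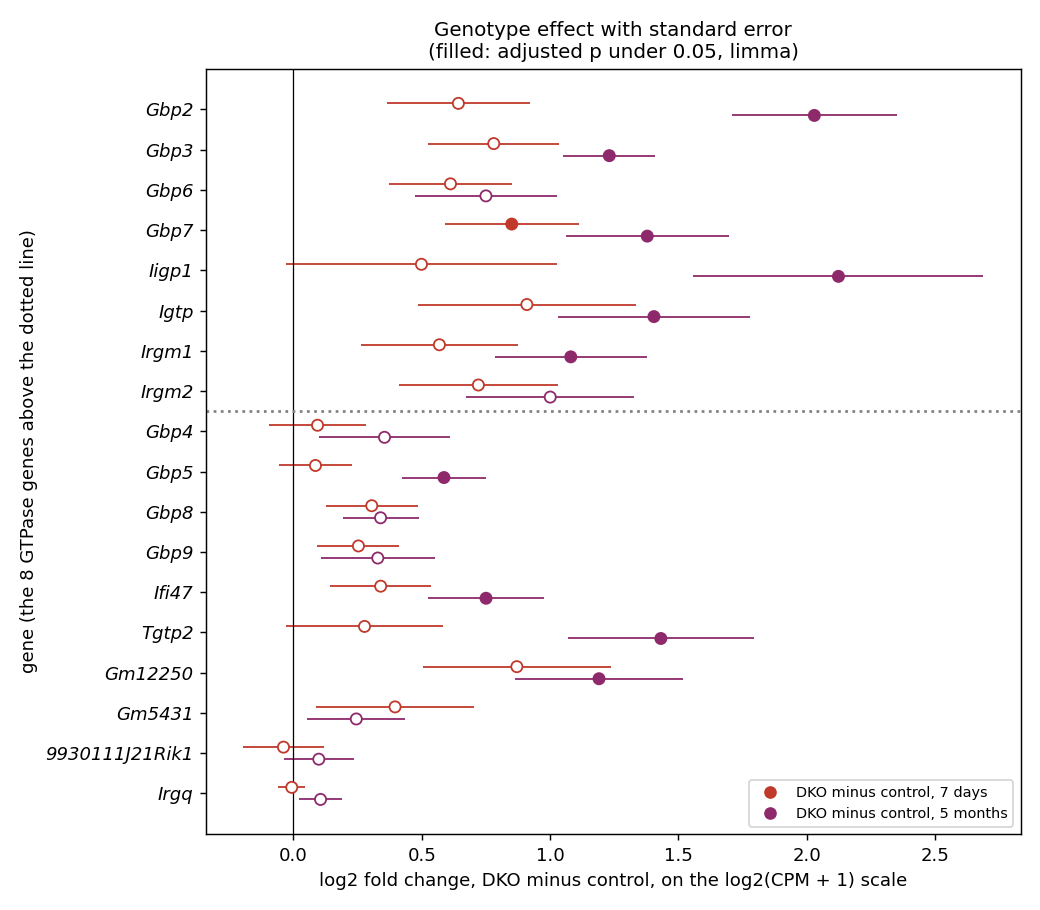
Log2 fold change, DKO minus control, with its standard error for the 8 GTPase genes (above the dotted line) and the 10 other Gbp and Irg genes tested, at 7 days and 5 months; filled points passed an adjusted p of 0.05 by limma. At 5 months 6 of the 8 points are filled and at 7 days only that of Gbp7.

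At 7 days the same 8 genes had higher DKO means in 8 of 8 cases, but only Gbp7 passed the threshold, and 0 of 8 fell (0 at an unadjusted p under 0.05, and 0 by edgeR and DESeq2). Of 13601 genes tested at 7 days 2.90% were called higher and 12.1% lower. The median log2 fold change was 0.68 over the 8 genes and -0.07 over all genes. At an unadjusted p under 0.05 by limma there were 5 of 8, against 3924 of the 13601 genes in either direction.

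Gbp7 ranged from 19.0 to 42.4 CPM with a median of 21.5 CPM in the 7 acute DKO libraries, against 25.0, 6.18, 13.7, 11.7 and 13.1 CPM in acute controls 1 to 5. Control 1 lay above all DKO libraries but DKO 4. Gbp7 rose by 0.85 ± 0.26 (adjusted p by limma = 0.0424). The exact permutation p of single genes, not adjusted, was 0.0114 over 792 splits for Gbp7. It was 0.0227 for Gbp3, 0.0354 for Gbp6 and 0.048 for Gbp2, and between 0.0833 (Irgm2) and 0.447 (Iigp1) for the rest. The limma call of Gbp7 was lost in 10 of 12 cases when 1 library was left out. It was kept without DKO 5 and without control 1. The adjusted p by limma reached at most 0.0958. Gbp3 ranged from 4.60 to 11.5 CPM with a median of 7.46 CPM in acute DKO libraries, against 7.10, 2.03, 3.24, 4.33 and 3.88 CPM in acute controls, a difference of 0.78 ± 0.26 that missed the threshold (adjusted p by limma = 0.0554). In the authors' deposited table, made with DESeq2, Gbp7, Gbp3 and Gbp2 had adjusted p of 0.0128, 0.0126 and 0.0255 at 7 days.

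Gbp2 ranged from 5.67 to 27.4 CPM with a median of 10.7 CPM in acute DKO libraries, against 9.55, 5.46, 8.88, 6.78 and 5.57 CPM in acute controls. Gbp6 ranged from 6.85 to 15.9 CPM with a median of 8.38 CPM in acute DKO libraries, against 9.55, 2.98, 6.61, 3.82 and 6.64 CPM in acute controls. Neither passed; the differences were 0.64 ± 0.28 for Gbp2 and 0.61 ± 0.24 for Gbp6 (adjusted p by limma = 0.144 and 0.105).

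Igtp ranged from 84.2 to 317.7 CPM with a median of 99.4 CPM in acute DKO libraries. In acute controls it stood at 170.8, 25.3, 57.1, 39.6 and 97.6 CPM, a spread that took in most of the DKO values. Its difference of 0.91 ± 0.43 was the highest of the 8 genes at this time, and with that spread it did not pass (adjusted p by limma = 0.176). Irgm1 ranged from 49.5 to 165.9 CPM with a median of 65.8 CPM in acute DKO and from 31.0 to 101.8 CPM in acute control libraries (adjusted p by limma = 0.241). Irgm2 ranged from 66.6 to 171.2 CPM with a median of 77.9 CPM in acute DKO and from 28.6 to 116.3 CPM in acute control libraries (adjusted p by limma = 0.138). Iigp1 ranged from 1.05 to 16.4 CPM with a median of 2.45 CPM in acute DKO libraries, against 8.43, 0.490, 1.62, 0.594 and 2.07 CPM in acute controls (adjusted p by limma = 0.586).

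Single animals set these ranges. Acute DKO 4 was the highest of all 12 acute libraries for 8 of 8 genes, control 1 was the highest control and control 2 the lowest control for 8 of 8, and control 1 exceeded the DKO median for 6 of 8. No gene had every acute DKO library above every control, against 1.24% of all genes. Leaving out control 1 left 4 genes called (Gbp3, Gbp6, Gbp7 and Irgm2), and leaving out DKO 5 left Gbp2, Gbp3 and Gbp7.

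The acute animal numbers fall into ranges by their first 3 digits, and the direction was not the same in each. Among animals whose numbers start with 107 (2 DKO and 3 control), 8 of 8 genes were higher in DKO libraries, by 0.12 to 1.13 on the log2 scale with a median of 0.68. Among those that start with 109 (3 DKO and 1 control, which is control 1), 2 of 8 were higher and 6 lower, from -1.71 to 0.11 with a median of -0.39. The range that starts with 111 holds DKO 3 and 4 only, and that of 108 holds control 5 only, so there genotype and number range cannot be told apart. With the number range as a block, limma called 0 of the 8 genes. Without DKO 3 and 4 together it also called 0.

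The genotype difference was larger at 5 months than at 7 days for 8 of 8 genes, but by a test of the difference itself 0 of 8 passed (limma values of both times, adjusted over 13088 genes), and 0 of 8 with edgeR in 1 model of all libraries. Of all genes, 0.0382% passed, and 887 of 13088 had an unadjusted p under 0.05 by the limma-based test, in either direction. The median change from 7 days to 5 months over all 13088 genes was 0.0787, also positive. The change from 7 days to 5 months was 1.39 ± 0.43 for Gbp2 (unadjusted p by this limma-based test = 0.00326, adjusted p = 0.702) and 1.63 ± 0.77 for Iigp1 (unadjusted 0.0458, adjusted p = 0.712), the 2 genes of 8 with an unadjusted p under 0.05. For the other 6 it lay between 0.14 (Gbp6) and 0.53 (Gbp7). Levels themselves are not compared across times, since each table was scaled alone.

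Per kilobase of merged exon, from GENCODE M21, an annotation of another build than the counts, the order of levels in prolonged DKO libraries was Igtp (82.0 ± 45.9 CPM per kb), Irgm2 (32.3 ± 14.9), Irgm1 (15.3 ± 7.08), Gbp7 (6.38 ± 3.21), Gbp2 (5.26 ± 2.58), Gbp3 (2.20 ± 0.577), Iigp1 (1.79 ± 1.86) and Gbp6 (1.76 ± 0.700). In prolonged controls Igtp, Irgm2 and Irgm1 led in the same order, at 28.7 ± 11.6, 15 ± 4.61 and 6.80 ± 2.16 CPM per kb, and Iigp1 was lowest at 0.160 ± 0.0796 CPM per kb. Among the 8 genes, the means of the 3 regulators stood above those of the effector Iigp1 and the 4 Gbp genes in both prolonged groups. The range of mean ± SD overlapped between every pair of neighbours in the DKO order of the 8. Effectors outside the 8 did not all keep to this order. Gm12250 had a mean of 67.6 CPM per kb in prolonged DKO and 27.1 in prolonged control libraries, above Irgm2 and Irgm1. The mean of the effector Ifi47 lay above that of Irgm1 in both groups. That of the effector Tgtp2 lay below all 3 regulators.

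The 8 genes varied together from animal to animal within groups. After the group mean was taken from each library, the 28 pairs of genes had correlations of 0.743 to 0.976 over the 20 libraries, with a median of 0.896. Without acute DKO 4 and acute control 1, the libraries farthest from the median, they were 0.614 to 0.966 over 18 libraries, with a median of 0.854. These are descriptions, and the libraries share their depth across genes. The mean deviation of the 8 genes was 1.12 in acute DKO 4, -0.53 in acute DKO 5, 1.002 in acute control 1, -0.80 in acute control 2, 0.97 in prolonged DKO 1 and -0.89 in prolonged DKO 3, in log2 units. High and low libraries thus occurred in both genotypes at 7 days.

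Genes whose deviations were most like the mean of the 8, among 12343 genes compared over 20 libraries, included Gm12250 (the effector also called Irgb10) at Pearson's r = 0.974, Tgtp2 (an Irgb6 gene) at 0.930, Ifi47 (Irgd) at 0.928, the peptide transporter gene Tap1 at 0.925 and Gm12185 at 0.915. Of these 5, Spearman's rho lay between 0.850 and 0.965, and r without the same pair of libraries lay between 0.849 and 0.956. Of these 5, r lay between 0.914 and 0.972 over the 12 acute libraries and between 0.903 and 0.986 over the 8 prolonged ones. Other Gbp genes had lower values over the 20 libraries, and some differed by time. Gbp8 had r = 0.346 over all libraries, 0.732 over the acute and -0.586 over the prolonged ones. Gbp5 had r = 0.334 over all, 0.109 over the acute and 0.715 over the prolonged ones. Gbp9 had 0.159, 0.382 and -0.11 in the same order, and Gbp4 stayed under 0.1 in all 3.

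**Figure D3:**
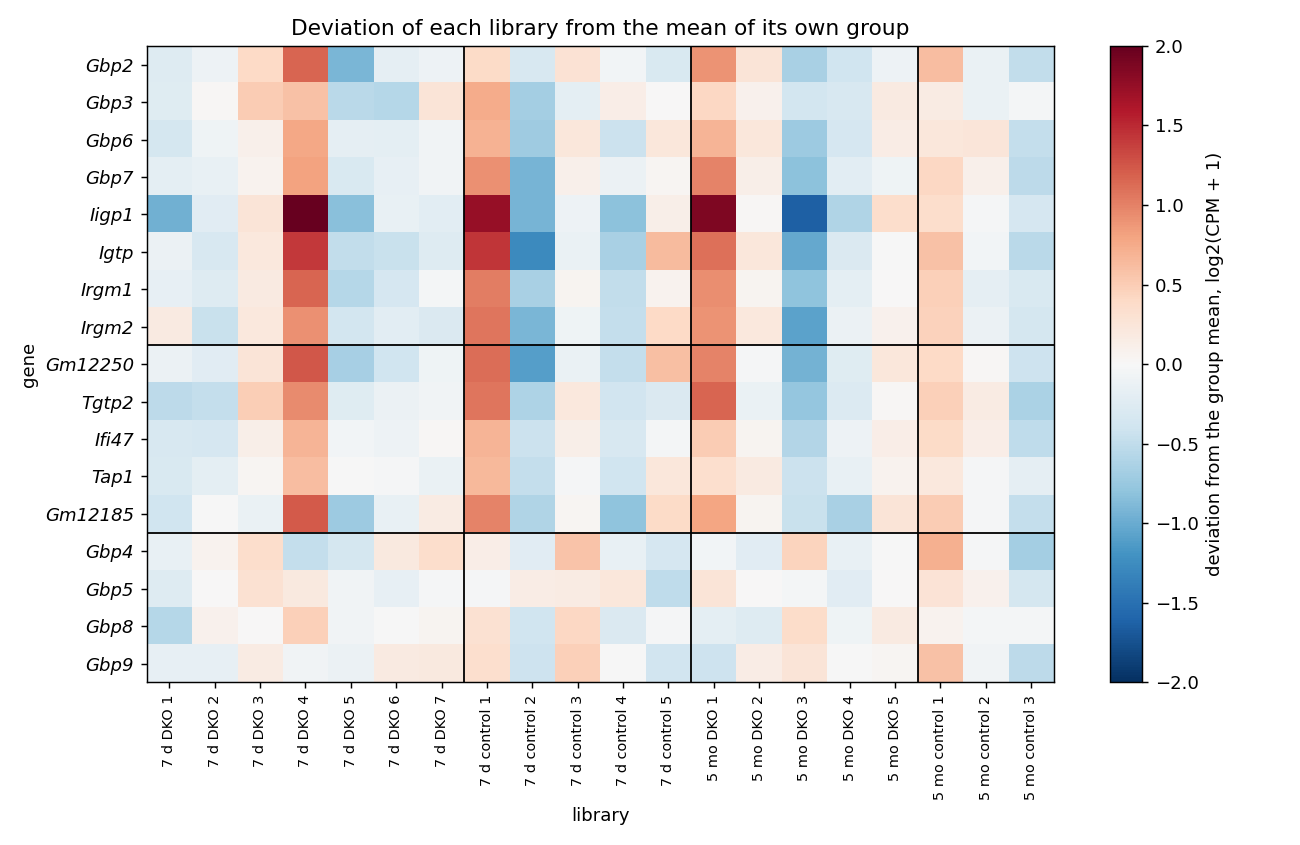
Deviation of each library (columns, DKO before control at each time) from the mean of its own group, in log2(CPM + 1), for the 8 GTPase genes, 5 of the genes most like them and 4 other Gbp genes, in blocks from top to bottom. The colours of the upper blocks change together by library, with acute DKO 4, acute control 1 and prolonged DKO 1 high; in the lowest block Gbp4 and Gbp9 do not follow these 3 libraries together, while Gbp8 is highest of the acute DKO libraries in DKO 4 and Gbp5 highest of the prolonged DKO libraries in DKO 1.

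Among the inputs of the pathway, Ifng was near the limit of detection, at 1 to 11 reads in DKO and 1 to 8 reads in control libraries, and was not tested. The receptor genes Ifngr1 and Ifngr2 and the kinase gene Jak1 did not pass at either time, with differences between -0.11 and 0.02. Jak2 rose at both times, by 0.33 ± 0.07 (adjusted p by limma = 0.00841) with 223.0 ± 20.01 CPM in acute DKO and 176.7 ± 16.3 CPM in acute control libraries, and by 0.24 ± 0.06 at 5 months (0.0216). It was above every control in 7 of 7 and 5 of 5 DKO libraries. The transcription factor gene Irf1 differed by 0.05 ± 0.13 at 7 days and 0.42 ± 0.14 at 5 months (adjusted p by limma = 0.836 and 0.0682), and the feedback inhibitor gene Socs1 by 0.09 ± 0.18 and 0.62 ± 0.32 (0.792 and 0.235). Of the 12 tested genes of interferon-gamma signalling, Jak2 was the only one called at either time. Of 16 genes of type I and III signalling, 7 rose and 1 fell (Mb21d1, encoding the DNA sensor cGAS) at 7 days, and 6 rose and 0 fell at 5 months (1 lower at an unadjusted p under 0.05 by limma; 0 called lower by edgeR and DESeq2). Among them Ifnlr1, the receptor gene for interferon lambda, rose at 7 days by 0.29 ± 0.09 (adjusted p by limma = 0.0404; 0.09 ± 0.11 at 5 months, 0.645), and Stat2 rose by 0.61 ± 0.17 and 0.55 ± 0.10 (0.0281 and 0.00460).

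Of 19 other Gbp and Irg genes, 10 could be tested. At 7 days 0 of 10 were called by limma (1 at an unadjusted p under 0.05; 0 by edgeR and 1 of 15 by DESeq2), with a median of 0.27. At 5 months 4 rose and 0 fell, with a median of 0.35: Gm12250 by 1.19 ± 0.33, Tgtp2 by 1.43 ± 0.36, Ifi47 by 0.75 ± 0.23 and Gbp5, which promotes inflammasome assembly, by 0.59 ± 0.16 (adjusted p by limma = 0.0300, 0.0208, 0.0438 and 0.0328). The first 3 are effector Irg genes, like Iigp1. With TMM scaling edgeR called 3 of the 10, with its relative log expression scaling it called 2, and DESeq2 called 2 of 14. Gm12250 differed by 0.87 ± 0.37 at 7 days (adjusted p by limma = 0.132), and 0 of the 10 passed the test of the difference between times (2 at an unadjusted p under 0.05; 0 by edgeR). Gbp4, Gbp8 and Gbp9, with 5.87 ± 1.38, 6.83 ± 1.48 and 5.41 ± 1.05 CPM in prolonged DKO libraries, did not pass (adjusted p by limma between 0.156 and 0.406).

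Other genes induced mainly by interferon-gamma were read at both times. At 7 days 1 of 19 was called higher (Tapbp, of peptide loading) with a median of 0.23. At 5 months 11 of 19 were called higher and 1 lower, with a median of 0.42. At an unadjusted p under 0.05, 3 were lower at 5 months by limma, 3 by DESeq2 and 2 by edgeR. DESeq2 called 4 higher at 7 days and 11 at 5 months, and edgeR called 1 and 8. By the test of the difference between times 0 of 19 passed with limma or edgeR (2 and 1 at an unadjusted p under 0.05, all toward a lower value at 5 months). Nlrc5, the activator of MHC class I genes, rose by 1.12 ± 0.18 at 5 months (adjusted p by limma = 0.00215; 0.60 ± 0.26 at 7 days, 0.14), Tap1 by 0.57 ± 0.14 (0.0204), the immunoproteasome gene Psmb9 by 0.50 ± 0.09 (0.00302) and the tryptophan-degrading enzyme gene Ido1 by 0.80 ± 0.20 (0.0183; 0.65 ± 0.24 at 7 days, 0.0819). Nos2, the inducible nitric oxide synthase gene, was the gene called lower, by 1.62 ± 0.35 on the log2 scale (adjusted p by limma = 0.0101). It had 20.98 ± 7.51 CPM in prolonged DKO and 68.1 ± 33.2 CPM in prolonged control libraries.

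Genes induced by type I and III interferon were called at both times. This list shares genes with that of type I and III signalling. Irf7, Ddx58 and Ifih1 are counted among the genes called higher in both lists at each time. Of 25, 15 rose at 7 days and 16 at 5 months, with medians of 0.72 and 0.59, and 0 fell at either (0 at an unadjusted p under 0.05, and 0 by edgeR and DESeq2). Ifit1, which blocks translation of viral RNA, rose by 1.15 ± 0.12 at 7 days, with 74.5 ± 9.28 CPM in acute DKO and 33.3 ± 6.495 CPM in acute control libraries (adjusted p by limma = 6.77e-05). Its groups did not overlap, unlike those of the 8 GTPase genes at that time. At 5 months Ifit1 rose by 0.77 ± 0.09 (0.000241). Whether these lists differ from the 8 GTPase genes in their change over time was not tested.

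**Figure D4:**
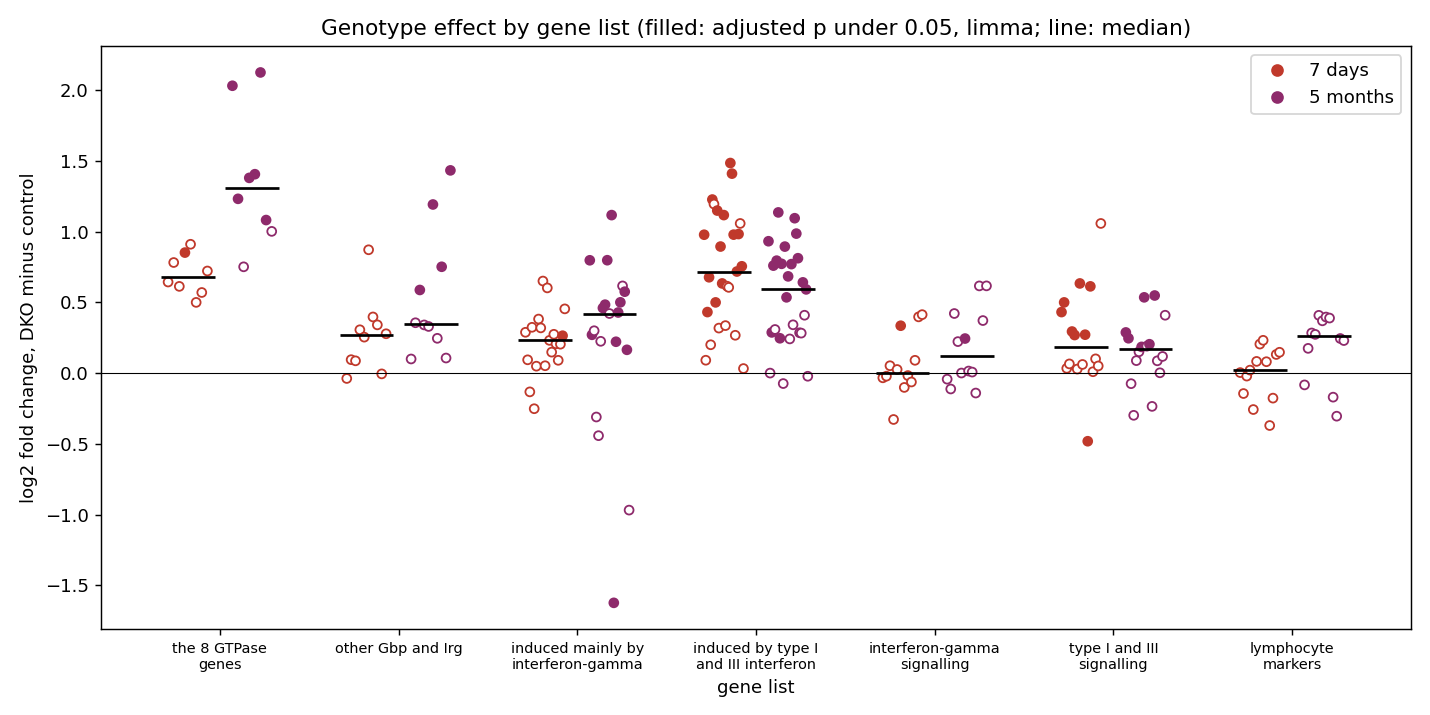
Log2 fold change, DKO minus control, of every tested gene in 7 lists at 7 days and at 5 months; filled points passed an adjusted p of 0.05 by limma and lines mark medians. The medians of the 8 GTPase genes are 0.68 and 1.31, those of genes induced by type I and III interferon 0.72 and 0.59, and 0 lymphocyte markers are filled.

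Genes of the machinery in which the GTPases work were mostly uncalled. Of 10 genes of Atg8 conjugation, which loads GTPases onto vacuoles, Map1lc3a rose at 7 days by 0.55 ± 0.13 (adjusted p by limma = 0.0131; 0.30 ± 0.09 at 5 months, 0.0512) and Gabarapl1 at 5 months by 0.45 ± 0.12 (0.0240; 0.09 ± 0.12 at 7 days, 0.677). Among inflammasome and pyroptosis genes, 14 tested at 7 days and 12 at 5 months, the protease gene Casp1 rose at both times, by 0.23 ± 0.06 and 0.29 ± 0.07 (adjusted p by limma = 0.0240 and 0.0124), Il18 rose at 5 months by 0.41 ± 0.09 (0.0122) with a difference of 0.43 ± 0.14 at 7 days that did not pass (0.0591), and Nlrp6 fell by 0.18 ± 0.06 at 7 days (0.0411), a call that edgeR and DESeq2 did not make.

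Markers of other cells were followed in the same libraries. Of 14 lymphocyte markers, 13 were tested at 7 days and 12 at 5 months, and 0 were called by limma, edgeR or DESeq2 (0 at an unadjusted p under 0.05). Their summed level was 277.9 to 856.1 CPM in acute DKO and 459.7 to 797.0 CPM in acute control libraries, and 402.8 to 951.8 CPM in prolonged DKO and 309.4 to 659.3 CPM in prolonged control libraries. Acute DKO 4 and prolonged DKO 1, with the highest GTPase levels of their groups, had the lowest lymphocyte sums of the DKO groups, and prolonged DKO 3, with the lowest GTPase levels, had the highest. In prolonged controls the order was the other way, with both the lymphocyte sum and most GTPase levels highest in control 1 and lowest in control 3. Acute controls 1 and 2, with the highest and lowest GTPase levels, had lymphocyte sums of 653.3 and 492.9 CPM. Neither was the highest or lowest sum of acute controls. Acute DKO 5, with the lowest mean GTPase deviation of its group, had 674.8 CPM, inside the range of that group. Myeloid markers summed to 30.2 to 511.7 CPM in acute DKO and 34.9 to 277.6 CPM in acute control libraries, and to 30.7 to 42.6 CPM in prolonged DKO and 25.3 to 33.9 CPM in prolonged control libraries; Itgam was called higher at 5 months (0.37 ± 0.09, adjusted p by limma = 0.0157). Stromal and endothelial markers summed to 16.2 to 616.8 CPM in acute DKO and 26.9 to 162.5 CPM in acute control libraries, with the highest sum in DKO 3, and to under 10 CPM in every prolonged library. Of 6 crypt markers, 3 fell at 7 days (Olfm4, Smoc2 and Mki67) and 2 at 5 months (Olfm4 and Mki67). Their sum was 622.2 to 1261 CPM in acute DKO and 1564 to 2087 CPM in acute control libraries, with the lowest in DKO 4, and 1295 to 1492 CPM in prolonged DKO and 1890 to 2173 CPM in prolonged control libraries. The part of these shifts in the GTPase values was not tested.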

How the data were processed

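The authors deposited 1 table per time with CPM per library and, per the file headers, DESeq2 columns of their own (log2 fold change, its error and a p-value). FastQC 0.11.5, SAMtools 1.9, STAR, featureCounts 1.6.2, bedtools 2.27.1, DESeq2 and mm9 stand in the submitters' processing notes. No source used here states strand-specific counting, so overlapping genes and near-identical relatives (of Gbp6 and Tgtp2, for example) carry uncertain values.

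Here limma-trend (limma 3.58.1, R 4.3.3) was run on log2(CPM + 1), each time alone, for genes with CPM of at least 0.5 in 5 acute or 3 prolonged libraries; an adjusted p (Benjamini-Hochberg) under 0.05 was a call. To compare times, the 2 log2 differences were subtracted and divided by their combined error. Low CPM steps gave whole reads for 100.0% of values within 0.1 read (weaker evidence in prolonged control 3), so edgeR 4.0.16 and DESeq2 1.42.0 on those reads were alternatives. The scripts were tested on simulated data. The genes, lists and tests were chosen with earlier results of these data known. Genes named were the 8 GTPases, the targeted genes, inputs of the pathway, list genes called at either time and the 6 genes most like the GTPases, 1 of which is not reported here; Gbp4, Gbp8 and Gbp9 were added after their values were seen.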

Additional observations from a re-analysis of the deposited data

Results flagged for a closer look

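Of 24 groups of libraries checked for a single value far from the others (8 genes in the acute DKO, acute control and prolonged DKO groups), 8 held one, where chance gives about 1 in 20; the genes vary together, so these flags are not independent. In acute DKO 4 the CPM was 15.9 for Gbp6, 42.4 for Gbp7, 16.4 for Iigp1, 318 for Igtp, 166 for Irgm1 and 171 for Irgm2, each far above the other 6 acute DKO libraries. Iigp1 was also far from the rest of its group in acute control 1, at 8.43 CPM, and in prolonged DKO 1, at 29.0 CPM. Without DKO 4, limma called 0 of the 8 genes at 7 days; without control 1, 4 of 8; without prolonged DKO 1, 6 of 8 at 5 months.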

How the results depend on the processing

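At 7 days the count of GTPase genes called higher, 1 of 8, rested on the setting: it was 3 with DESeq2 and 0 with edgeR under TMM or relative log expression factors, with no filter on low CPM, with the animal-number block, without acute DKO 3 and 4 together, and with replicate number as a block. Leaving out 1 library gave 0 to 4. The cause was not tested. At 5 months the count of 6 stayed at 5 or 6 under the settings that kept all libraries (5 with a pseudocount of 5 and 5 with the replicate block, where Iigp1 lost its call) and ranged from 2 to 8 when 1 library was left out. The acute difference of Iigp1 turned to -0.27 with the animal-number block. The difference between times turned for Gbp6 when 1 library was left out (-0.10 to 0.32). Over all genes, edgeR with TMM factors called 1748 at 7 days and 1991 at 5 months, against 2035 and 1955 by limma; the replicate block gave 947 and 528, and leaving out 1 control gave as few as 1222 (acute control 3; 1344 without acute control 4) and 1028 (prolonged control 3). For the difference between times 5 genes were called by limma, and 0 by edgeR and with the replicate block. Samples with the same replicate number did not deviate together (correlations of -0.202 to 0.198 at 7 days and -0.24 to -0.158 at 5 months). These values gave no sign that the numbers pair the samples. With few samples per group and the group means removed, this check cannot exclude pairing. No GTPase gene was called lower, or for the difference between times, in any setting run. Iigp1 had only 5 to 33 reads in prolonged controls. In prolonged DKO libraries it had 24 to 364 reads, with an SD of 10.8 CPM around a mean of 10.4 CPM. The part of depth in its values was not tested.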
